A study of Mus musculus with 12 samples.

Results

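The genes described here are 46 genes of mitosis, the spindle and the kinetochore, followed in macrophages that were resting or activated, with and without an inhibitor of triacylglycerol synthesis. They were taken from a list of gene symbols (G2/M cyclins and kinases, kinesins, kinetochore genes and condensin genes) and not by a threshold on measured values, although earlier results of these data were known when it was made, and all 46 were found among the 47937 genes of the count table. RNA was sequenced from bone marrow-derived macrophages (BMDM) of C57BL/6 mice, which are grown from marrow cells in the growth factor CSF-1. There were 4 groups of 3 libraries. Resting cells (M0) had no stimulus, and their labels give no time. Inflammatory cells (IFNγ + LPS) had 50 ng/ml of the cytokine interferon-γ and 20 ng/ml of the bacterial cell wall component lipopolysaccharide for 18 h. A resting and an inflammatory group had in addition 50 μM of T863 (DGAT1i), an inhibitor of DGAT1, the enzyme that adds the last fatty acid to a triacylglycerol, and their titles give 18 h. The descriptions of 2 of the 3 resting libraries with DGAT1i read T864 and T865, while the titles of all 3 read DGAT1i, and they were kept in 1 group. The labels do not say whether the 3 libraries of a group came from separate animals or cultures, so that p-values measure the spread between these libraries, which may be technical.

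In mitosis a cell separates its copied chromosomes into daughter cells. CDK1 bound to a cyclin starts the process, condensin packs the chromosomes, kinesin motors and microtubule-binding proteins build the spindle, and kinetochores on the centromeres hold on to it. The spindle checkpoint holds back the anaphase-promoting complex (APC/C) until all chromosomes are attached, and cytokinesis then divides the cell. Macrophages in CSF-1 culture divide, and RNA of most of these genes is made mainly in G2 and M phase, so that their level in bulk RNA is commonly read as a sign of cycling cells. In bulk RNA, fewer cells in mitosis and less of the RNA in each cell cannot be told apart.

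The libraries held 4996014 to 6621671 reads counted on genes. Levels are given as CPM, reads of a gene relative to all reads of its library after scaling by the TMM method, and 1 CPM is worth 4.28 to 7.58 reads in a library. All 46 mitotic genes passed the filter on low counts that left 11760 genes to be tested, but in the 6 inflammatory libraries alone 17 of the 46 passed it, so that most entered the test through their level in resting cells. A gene was taken as changed at an adjusted p under 0.05 (quasi-likelihood test of edgeR, adjusted by Benjamini and Hochberg's method over all tested genes). The macrophage markers (8 genes, among them Adgre1, Csf1r and Cd68) summed to at least 7980 CPM in each of the 12 libraries. Markers of erythroid cells, mast cells and T and NK cells summed to at most 0.7 CPM, those of stem and progenitor cells to at most 1.95, of fibroblasts to at most 2.11 and of B cells to at most 2.66 CPM. Those of dendritic cells reached 16.6 CPM and those of neutrophils and granule precursors 82.4 CPM, and both differed between groups, as given below.

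The summed level of the 46 genes separated the groups. It was 3566, 3818 and 3234 CPM in the 3 M0 libraries and 242.6, 263 and 232.3 CPM in IFNγ + LPS. In M0 with DGAT1i it was 1383, 1244 and 1482 CPM, and in IFNγ + LPS with DGAT1i 206.5, 213.6 and 218.3 CPM. Thus resting cells were highest, resting cells with DGAT1i lay between, the inflammatory groups were lowest, and no library of a resting group overlapped with another group. The mean sum was 14.39 times higher in M0 than in IFNγ + LPS and 2.583 times higher in M0 than in M0 with DGAT1i. Without Tpx2, the most abundant of the 46 in IFNγ + LPS, these ratios were 21.88 and 2.585. The 46 genes took 0.4203% ± 0.0346 (SD, n = 3) of all counted reads in M0 and 0.0211% ± 0.00105 (SD, n = 3) in IFNγ + LPS.

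**Figure D1:**
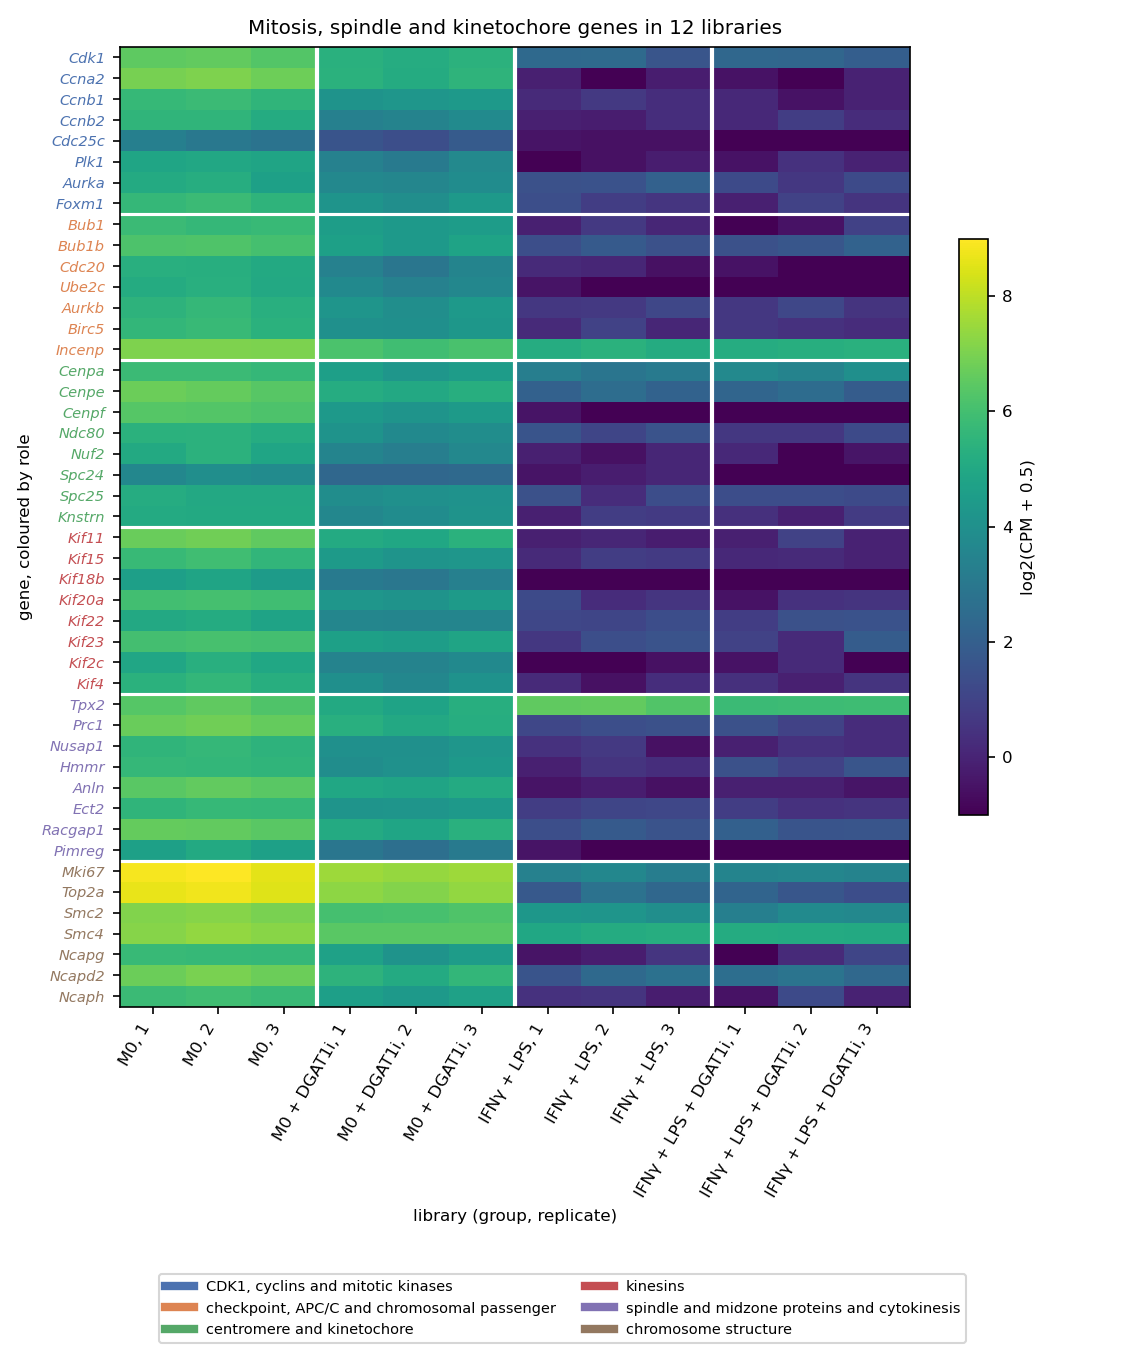
Level of each of the 46 genes (rows, names coloured by role) in each of the 12 libraries (columns, 3 per group), as log2(CPM + 0.5). In the IFNγ + LPS columns almost all rows are dark, and the row of Tpx2 stands out, with 92.9, 94.9 and 76.2 CPM.

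Levels were also taken per kilobase of exon, over all annotated exons of a gene. This length can exceed that of the transcript made, so that comparisons between genes are rough. Highest in M0 by this measure were Top2a (topoisomerase II, which untangles DNA) and Mki67 (the proliferation marker Ki-67, which coats mitotic chromosomes). Their levels were 44.8 and 44.6 CPM per kb. They were followed by Incenp at 30.2, Ccna2 at 29.8, Smc4 at 29.2, Ccnb2 at 27.6 and Smc2 at 24.7 CPM per kb, and Cdc25c was lowest at 1.58. In IFNγ + LPS the order was another one. Tpx2 was highest at 18.8 CPM per kb, followed by Incenp at 8.59, Smc4 at 6.53, Smc2 at 3.15 and Cenpa at 1.36, while Mki67 stood at 1.02 and Top2a at 0.508 CPM per kb.

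The genes share promoter letters that the list did not use. Promoters of 36 of the 46 genes were found in a RefSeq table (build GRCm38.p6, 250 bases before to 50 after the start). In genes of G2 and M phase, factors of the MuvB group are known to act through the cell cycle homology region (CHR, TTTGAA or TTTAAA), often with CCAAT boxes, which NF-Y binds. Both were searched on both strands (TTCAAA and ATTGG on the other, and overlapping matches each counted). A CHR was found in 31 of the 36 promoters (86.1%), against 27.9% of 27025 promoters of all genes and 19.2% of 8938 promoters of genes tested here. CCAAT was found in 27 (75%), against 38% and 39.3%, and a CHR together with CCAAT in 26 (72.2%), against 11% and 7.89%. The exceptions with no CHR in the window were Bub1, Nuf2, Knstrn, Nusap1 and Ncaph. A match describes letters and is not a measured site.

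The 250 bases before the start are shown for 4 genes that the naming rule gives first and for Ccnb2, Kif11 and Top2a, which were chosen after their values and promoters were seen, because they hold several boxes or a CHR close to the start. Cdk1 (chr10:69352913-69353162, minus strand), Bub1b (chr2:118597961-118598210, plus strand), Cenpe (chr3:135212313-135212562, plus strand), Cenpf (chr1:189688087-189688336, minus strand), Ccnb2 (chr9:70421555-70421804, minus strand), Kif11 (chr19:37376132-37376381, plus strand) and Top2a (chr11:99024190-99024439, minus strand) are read 5′ to 3′ towards the gene, with CHR and CCAAT matches in capitals.
Cdk1: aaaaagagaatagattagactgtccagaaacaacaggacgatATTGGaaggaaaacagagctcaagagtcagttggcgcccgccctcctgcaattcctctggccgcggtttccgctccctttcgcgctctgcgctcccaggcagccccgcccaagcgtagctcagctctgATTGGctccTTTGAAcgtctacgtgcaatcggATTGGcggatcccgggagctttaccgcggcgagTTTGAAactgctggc
Bub1b: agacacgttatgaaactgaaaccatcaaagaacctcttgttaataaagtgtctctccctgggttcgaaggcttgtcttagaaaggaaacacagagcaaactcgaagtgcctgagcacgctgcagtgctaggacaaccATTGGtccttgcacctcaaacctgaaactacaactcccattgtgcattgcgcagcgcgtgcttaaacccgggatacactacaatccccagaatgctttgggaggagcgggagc
Cenpe: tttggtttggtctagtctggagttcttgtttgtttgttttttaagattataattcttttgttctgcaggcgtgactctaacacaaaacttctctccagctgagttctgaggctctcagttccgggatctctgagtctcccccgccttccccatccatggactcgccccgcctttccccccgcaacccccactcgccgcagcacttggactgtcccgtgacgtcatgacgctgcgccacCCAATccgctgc
Cenpf: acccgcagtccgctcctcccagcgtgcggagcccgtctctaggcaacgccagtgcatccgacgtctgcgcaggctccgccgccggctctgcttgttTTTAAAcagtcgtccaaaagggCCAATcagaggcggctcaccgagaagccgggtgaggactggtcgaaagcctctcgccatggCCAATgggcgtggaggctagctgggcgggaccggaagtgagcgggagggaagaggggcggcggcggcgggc
Ccnb2: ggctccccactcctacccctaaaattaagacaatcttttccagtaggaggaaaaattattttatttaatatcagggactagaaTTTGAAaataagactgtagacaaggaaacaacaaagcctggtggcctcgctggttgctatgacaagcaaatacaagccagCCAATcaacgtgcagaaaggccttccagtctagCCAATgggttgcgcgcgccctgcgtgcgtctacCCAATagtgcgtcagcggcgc
Kif11: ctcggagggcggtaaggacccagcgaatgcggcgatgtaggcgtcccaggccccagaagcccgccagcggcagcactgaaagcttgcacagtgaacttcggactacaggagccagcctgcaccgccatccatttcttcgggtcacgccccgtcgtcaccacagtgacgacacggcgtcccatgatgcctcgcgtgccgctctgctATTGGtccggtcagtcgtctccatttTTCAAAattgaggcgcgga
Top2a: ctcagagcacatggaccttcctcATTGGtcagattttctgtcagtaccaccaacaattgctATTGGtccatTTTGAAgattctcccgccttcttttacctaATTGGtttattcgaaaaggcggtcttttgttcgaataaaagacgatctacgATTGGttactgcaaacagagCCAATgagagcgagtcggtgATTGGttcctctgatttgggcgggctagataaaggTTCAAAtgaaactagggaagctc
Cdk1 and Ccnb2 each hold 3 CCAAT boxes and 2 TTTGAA in the 300-base window, and Top2a holds 6 CCAAT boxes and 2 TTTGAA. Bub1b and Cenpe have their CHR after the start, outside the bases shown. The last 26 bases shown for Cdk1 and for Cenpe lie in an exon of the GENCODE annotation, whose start differs from that of RefSeq.

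The first comparison asks what inflammatory activation did to these genes. IFNγ + LPS lowered 45 of the 46 mitotic genes and raised none, and the exception was Tpx2. Over all tested genes 36.2% fell and 37.1% rose, and 17.2% fell by more than 2-fold, which all 45 did. The 3 inflammatory libraries lay below the 3 resting ones, without overlap, for 45 of the 46, against 37.1% of all tested genes. The median log2 fold change of the 46 was -5.67, and that of all tested genes was 0.01. Among genes with reads left the values ran from -9.85 (Cenpf) to 0.07 (Tpx2, which was at -0.40 with libraries scaled by size only), and Kif18b, with 0 reads in IFNγ + LPS, has only a bound. As a share of the M0 level, the median gene kept 1.92%, with 10 genes under 1%, 27 between 1% and 5%, 4 between 5% and 10% and 5 above. With libraries scaled by their size only, the all-gene split was 7002 lower and 2340 higher in place of 4254 and 4361.

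**Figure D2:**
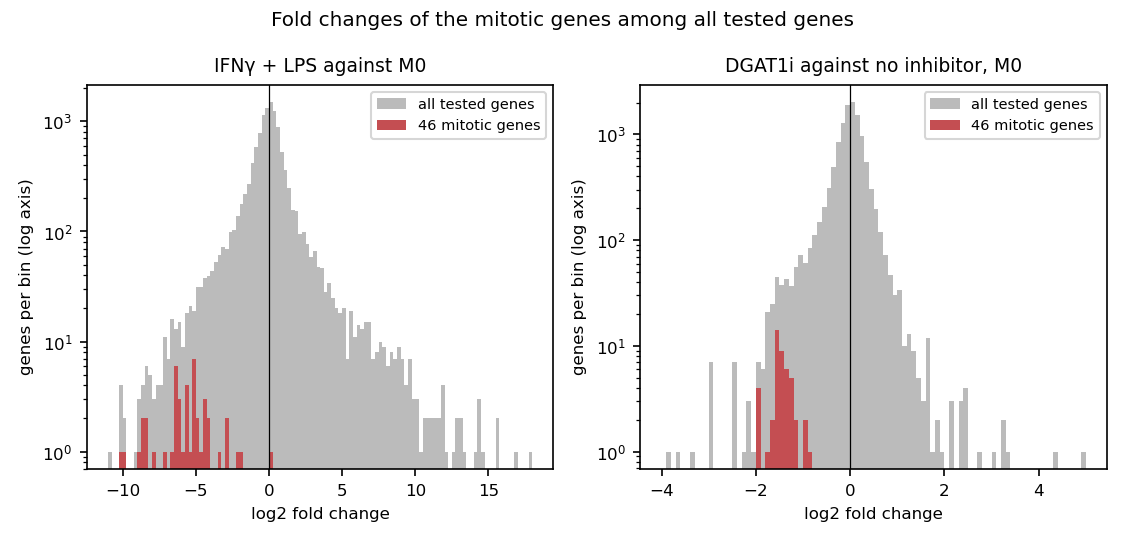
Histograms of log2 fold changes of all 11760 tested genes (grey) and of the 46 mitotic genes (red), for IFNγ + LPS against M0 (left) and DGAT1i in M0 (right), with a log axis for genes per bin. On the left the red bars of genes with reads in IFNγ + LPS lie between -9.85 and 0.07 (-0.40 for the uppermost, Tpx2, with libraries scaled by size only) and the bar furthest left is the fitted value of Kif18b, which had 0 reads, and on the right they lie between -1.98 and -0.83.

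**Figure D3:**
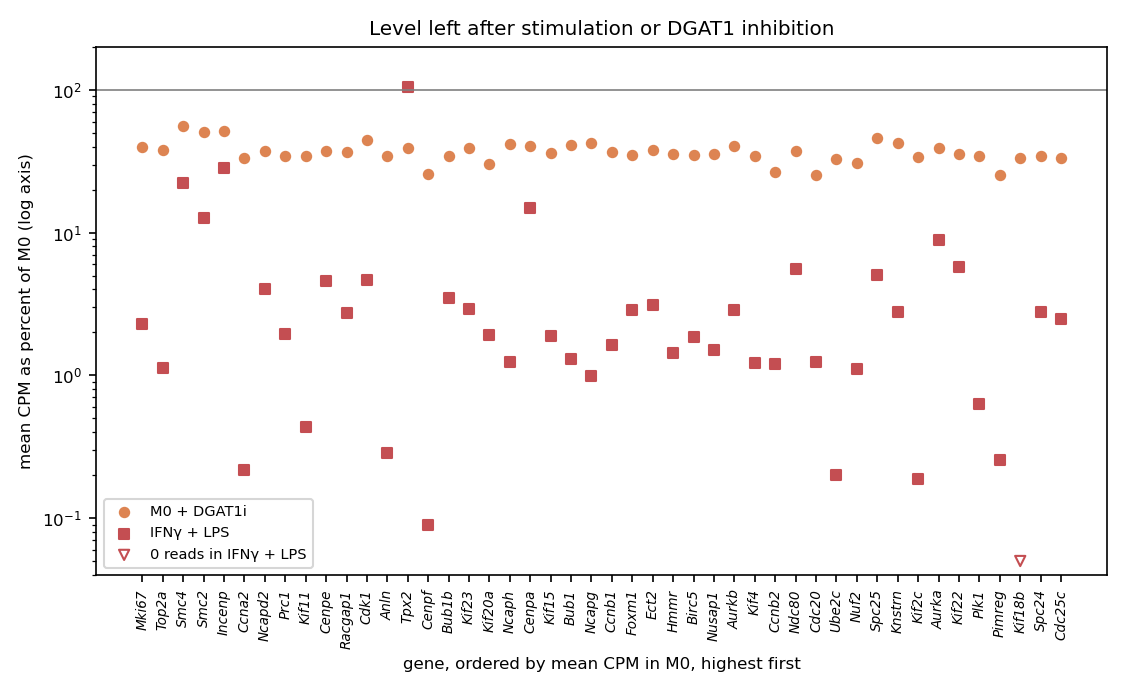
Mean CPM of each of the 46 genes as a percent of its mean in M0 (log axis, 3 libraries per group), in M0 with DGAT1i (circles) and in IFNγ + LPS (squares), ordered by their level in M0. The circles lie in a band between 25.3% and 56.2%, while the squares spread from under 0.1% to 105%, and the triangle marks Kif18b with 0 reads in IFNγ + LPS.

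The 8 genes in the role of cyclins and kinases that start mitosis, with Cdc25c and Foxm1 counted among them, fell together, all 8 lower. Cdk1, the kinase itself (chr10:69335146-69352938), was at 91.5, 96.3 and 80.3 CPM in M0 and at 4.84, 5.04 and 2.62 CPM in IFNγ + LPS, a log2 fold change of -4.42 ± 0.14 (SE, adjusted p = 1.51e-35). Its partner Ccna2, cyclin A2 (chr3:36564865-36572150), fell further, from 124, 131 and 110 CPM to 0.421, 0 and 0.375 CPM (log2 fold change -8.78 ± 0.22, adjusted p = 2e-34). Its ratio of 476 has a 95% counting interval of 186 to 1750, and the log2 fold change was -8.18 without IFNγ + LPS replicate 2. Both genes thus stood far apart from their M0 values in each library, but Ccna2 was left with 4 reads in the whole inflammatory group and Cdk1 with 65. The B-type cyclins Ccnb1 and Ccnb2 kept 1.62% and 1.21%. Among the kinases, Aurka, which builds spindle poles, kept 8.82%, the most of this role. Plk1, a kinase of many mitotic steps, had 3 reads left, a ratio of 154 with a 95% counting interval of 52.5 to 750. Cdc25c, the phosphatase that activates CDK1, also had 3 reads left (ratio 40.4, interval 13.6 to 198), and the transcription factor Foxm1, which drives G2/M genes, kept 2.88%.

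All 7 genes of the checkpoint, the APC/C and the chromosomal passenger complex fell. Bub1b, a checkpoint protein that restrains the APC/C (chr2:118598211-118641591), was at 72.4, 74.3 and 65.3 CPM in M0 and at 2.11, 3.06 and 2.25 CPM in IFNγ + LPS (log2 fold change -4.81 ± 0.16, adjusted p = 2.29e-34). Incenp, the scaffold of the passenger complex (chr19:9872296-9899551), was at 131, 133 and 128 CPM in M0 and still at 36, 41 and 34.5 CPM in IFNγ + LPS (log2 fold change -1.81 ± 0.077, adjusted p = 7e-29). Within the passenger complex the counting interval of Incenp lay below those of the other subunits. Incenp was 3.51-fold lower (95% counting interval 3.21 to 3.85), Aurkb, the kinase of the complex, 34.5-fold lower (22.2 to 56.8) and Birc5, the survivin subunit, 52.9-fold lower (31.4 to 97.2). The remaining subunit Cdca8 (borealin), outside the 46, lay between, at 7.55-fold lower (6.11 to 9.42). Cdc20 and Ube2c, an activator of the APC/C and the enzyme that hands it ubiquitin, were left with 7 reads and 1 read. For Ube2c that is a ratio of 553 with an interval of 98.9 to 21900. Bub1, a checkpoint kinase, kept 1.31%.

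Of the centromere and kinetochore genes all 8 fell. Cenpe, a kinesin that carries chromosomes to the spindle equator (chr3:135212537-135273611), was at 106, 97.6 and 83.4 CPM in M0 and at 3.79, 5.4 and 3.93 CPM in IFNγ + LPS (log2 fold change -4.43 ± 0.13, adjusted p = 3.6e-35). Cenpf, a large protein of the outer kinetochore (chr1:189640606-189688086), went from 80.6, 80.2 and 73.4 CPM to 0.211, 0 and 0 CPM, which is a single read in the group and a ratio of 1220 (95% counting interval 219 to 48300). The values of Cenpf in M0 were close to those of Cenpe, and those in IFNγ + LPS lay below them in each library. The 4 subunits of the NDC80 complex, which binds the microtubule end, kept 5.53% (Ndc80), 1.11% (Nuf2), 2.8% (Spc24) and 5.07% (Spc25). Cenpa, the histone that marks the centromere, kept 14.8%, and Knstrn, a spindle and kinetochore protein, 2.8%.

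Kinesins fell in all 8 cases. Kif11, the motor that pushes spindle poles apart (chr19:37376403-37421859), was at 104, 112 and 92.3 CPM in M0 and at 0.421, 0.54 and 0.375 CPM in IFNγ + LPS (log2 fold change -7.78 ± 0.21, adjusted p = 2.93e-35). Kif23, a motor of the midzone and cytokinesis (chr9:61915905-61946774), went from 64.2, 66.7 and 62.9 CPM to 1.05, 2.16 and 2.44 CPM (log2 fold change -5.06 ± 0.18, adjusted p = 1.4e-31). Kif11 was thus the higher of these in M0 and the lower in IFNγ + LPS. Kif18b, which acts on astral microtubules (chr11:102905529-102925124), had 536 reads in M0 and 0 in IFNγ + LPS, and with the group's limit of detection taken as 3 reads it was at least 130-fold lower. Kif2c, which takes microtubules apart, had 1 read left (ratio 521, interval 93.1 to 20600). The chromokinesins Kif22 and Kif4 kept 5.71% and 1.23%, and Kif15 and Kif20a kept 1.89% and 1.91%. Kif20a shares 1271 exon bases with Cdc23 on the other strand, 29.3% of its exons, so that its reads are uncertain to that extent. Exons of Ccna2, Ube2c, Prc1, Ncapg and Kif4 also overlap other genes on the opposite strand (Exosc9, Tnnc2, Rccd1, Lcorl and Pdzd11), by 510 to 944 bases, and Ccnb1 has near-identical copies of which Ccnb1-ps held 8 reads in the 12 libraries.

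Among spindle, midzone and cytokinesis proteins 7 of 8 fell. Prc1, which bundles midzone microtubules (chr7:80294450-80316259), was at 105, 112 and 97.2 CPM in M0 and at 1.68, 2.16 and 2.25 CPM in IFNγ + LPS (log2 fold change -5.66 ± 0.15, adjusted p = 6.91e-39). Anln, which links the contractile ring to the membrane, kept 0.285% and had 4 reads left. The regulators of cytokinesis Ect2 and Racgap1 kept 3.13% and 2.72%, the microtubule-binding Nusap1 and Hmmr kept 1.51% and 1.44%, and Pimreg had 1 read left (ratio 432, interval 77.3 to 17100).

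Chromosome structure genes fell in all 7 cases. Mki67 (chr7:135689784-135716361) was at 457, 508 and 383 CPM in M0 and at 9.9, 11.9 and 8.99 CPM in IFNγ + LPS (log2 fold change -5.45 ± 0.11, adjusted p = 6.69e-22). Top2a (chr11:98992943-99024189) went from 409, 438 and 366 CPM to 2.95, 6.3 and 4.5 CPM (log2 fold change -6.43 ± 0.13, adjusted p = 1.3e-24). Among the condensin genes of the 46, the core subunits had counting intervals below those of the condensin I subunits. Smc2 and Smc4, the core that condensin I and condensin II share, were 7.88-fold (95% counting interval 6.95 to 8.96) and 4.46-fold lower (4.07 to 4.9). Ncapd2, Ncaph and Ncapg, which belong to condensin I, were 24.5-fold (19.4 to 31.5), 80.6-fold (44.9 to 162) and 100-fold lower (50.6 to 232). The condensin II subunits Ncapg2 and Ncapd3, outside the 46, were 7.68-fold (6.6 to 8.98) and 3.93-fold lower (3.4 to 4.56).

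Tpx2, which brings Aurora A to the spindle and activates it (chr2:152847964-152895321), did not follow the other 45. It was at 81.8, 93.4 and 75.7 CPM in M0 and at 92.9, 94.9 and 76.2 CPM in IFNγ + LPS, and the values of the groups overlapped. Its log2 fold change was 0.07 ± 0.091 (SE, adjusted p = 0.487), and with libraries scaled by size only it turned to -0.40 (adjusted p = 0.000235), where the median of all tested genes was -0.46. Tpx2 was measured from 1375 reads in the inflammatory group, shares no exon bases with another annotated gene, and has no other transcript at 95% identity over at least 20% of its length. The genes that kept the most after Tpx2 were Incenp (28.4%), Smc4 (22.3%), Cenpa (14.8%) and Smc2 (12.7%), and they were singled out after their values were seen. Without Tpx2 the sum of the genes was 149.7, 168.1 and 156 CPM in the IFNγ + LPS libraries.

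**Figure D4:**
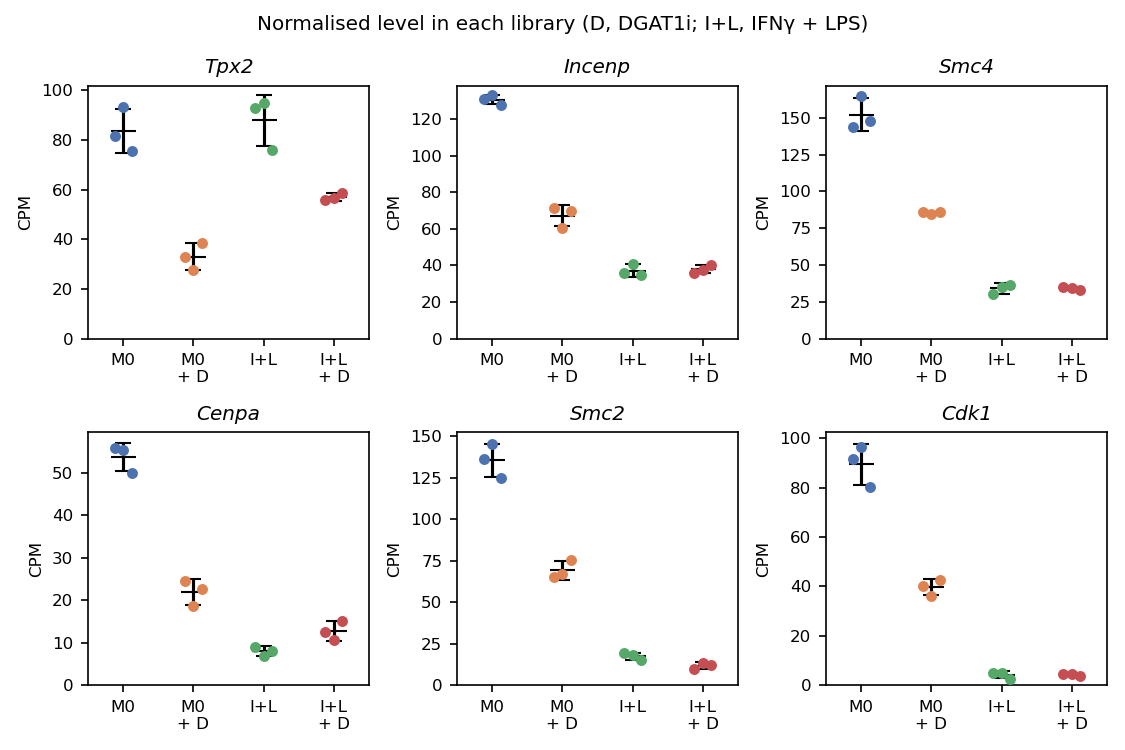
CPM in each library (points) with the mean and SD of 3 libraries (black) for the 5 genes that kept the most in IFNγ + LPS, and for Cdk1. Tpx2 is as high in IFNγ + LPS as in M0 (lower by 0.40 on the log2 scale with libraries scaled by size only) but lower with DGAT1i in both states, and Cenpa is higher in IFNγ + LPS with DGAT1i than without.

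Genes that work with the 46 were counted from lists chosen with earlier results of these data known. Of 14 further checkpoint and passenger genes all 14 fell with IFNγ + LPS, among them Kntc1 (log2 fold change -6.06), Nek2 (-7.37) and Pbk (-8.67). Nek2 had 3 reads left (ratio 183, interval 62.4 to 890) and Pbk 1 read (ratio 539, interval 96.5 to 21300). Of 28 further kinetochore genes 27 fell (Hjurp -2.25, Knl1 -6.4), and of 25 spindle and centrosome genes 22 fell (Aspm and Spag5 -7.04 each, Kif20b -4.04), with none higher in either list. The APC/C and cohesin lists held genes of both directions, and their split moved with the scaling. Over all tested genes 36.2% fell and 37.1% rose, and the APC/C counts lay near or under these shares. Of 17 APC/C genes 7 fell and 4 rose (14 and 1 with libraries scaled by size only), and the APC/C inhibitor Fbxo5 fell by 4.01 on the log2 scale. Of 15 cohesin, separase and other condensin genes 10 fell (Ncapg2 -2.94, Smc3 -1.58, Ncapd3 -1.97) and 4 rose (13 and 1 by size only), among them Pttg1, the inhibitor of separase, at 1.93 (named after its value was seen). Of 23 S-phase genes all 23 fell, with a median log2 fold change of -3.54 (Mcm6 -3.57, Rrm1 -3.48, Mcm7 -4.57).

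The lists of upstream regulators also held both directions, as did all tested genes (36.2% lower and 37.1% higher). Of 16 CDK inhibitors and brakes 7 rose and 7 fell with IFNγ + LPS (5 and 8 with libraries scaled by size only), with Cdkn1a, which encodes the CDK inhibitor p21, higher at 1.62 (adjusted p = 1.99e-33), Btg1 higher at 1.66 and Cdkn2c lower at -5.56. Of 11 genes of G1 cyclins, kinases and CDC25 8 fell and 3 rose (8 and 2 by size only), with Ccnd2 (cyclin D2) at 2.73, Myc at -6.66 and Cdc25b at -4.19. Of 19 genes of the DREAM, MuvB and E2F group 11 fell and 4 rose, or 15 and 1 by size only (E2f8 -3.56, E2f2 -4.38, and Rbl1 at 1.26). Marker lists moved with IFNγ + LPS too. The 8 macrophage markers summed to 13300 to 14500 CPM in M0 and 8470 to 9070 CPM in IFNγ + LPS, and the 4 dendritic cell markers to 0.133 to 0.696 and 12 to 16.6 CPM, with no marker of either list at 0 reads over the 12 libraries. Gene by gene, 5 of the macrophage markers were lower and 3 higher. The neutrophil and granule list went from 37.6 to 46.2 CPM in M0 to 16.8 to 27.3 CPM, with 3 of 5 tested genes lower, and the B cell list from 2.03 to 2.66 CPM to 0.211 to 0.562 CPM. Their part in the values of the mitotic genes was not tested.

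The second comparison asks whether these genes differed between resting cells with and without DGAT1i. All 46 were lower with DGAT1i, including Tpx2, and in each of them the 3 libraries with DGAT1i lay below the 3 without. The M0 labels give no time, and the paper describes M0 cells as kept in medium with nothing further added. It names off-target effects of the inhibitor in inflammatory macrophages as a possibility. The parts of DGAT1, of other targets, of a solvent and of culture time in these values were not tested. Of all tested genes 13.4% fell and 11% rose, and 19.9% had groups that did not overlap with DGAT1i lower. The fall was over 2-fold in 43 of the 46, against 2.73% of all tested genes. The median log2 fold change of the 46 was -1.48, in a narrow range from -1.98 to -0.83, and the 46 kept between 25.3% and 56.2% of their M0 level. With libraries scaled by size only the all-gene split was 2092 lower and 885 higher, in place of 1571 and 1298, and all 46 were lower there too. Sums of marker lists also differed with DGAT1i in M0. The macrophage markers summed to 16200 to 18200 CPM, the neutrophil and granule list stood at 29.2 to 37.2 CPM and the B cell list at 0.531 to 1.85 CPM, each without overlap with M0. Gene by gene, 3 of the 8 macrophage markers were higher and 2 lower. None of the 5 tested neutrophil and granule genes passed the test, and the 1 tested B cell gene was lower. The part of these markers in the values of the mitotic genes was not tested.

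The role medians lay close together, at -1.52 for the cyclins and kinases, -1.5 for the checkpoint and passenger genes, -1.42 for the kinetochore, -1.54 for the kinesins, -1.49 for spindle and cytokinesis proteins and -1.26 for chromosome structure. The largest falls among the 46 were those of Pimreg (-1.98 ± 0.15, adjusted p = 3.9e-16), Cdc20 (-1.96 ± 0.13, adjusted p = 9.62e-19) and Cenpf (-1.96 ± 0.092, adjusted p = 1.28e-23). Cdc20 went from 39.1, 37.6 and 33.1 CPM to 10.1, 7.1 and 10.8 CPM, and Pimreg from 24.8, 32.6 and 25.1 CPM to 7.17, 5.82 and 7.92 CPM. Cenpf fell to 20.7, 17.7 and 21.4 CPM, all far below its M0 libraries.

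The abundant genes of each role fell as well. Cdk1 was at 40.2, 36.1 and 42.4 CPM with DGAT1i (log2 fold change -1.17 ± 0.083, adjusted p = 1.76e-17), and Ccna2 was at 41, 34.8 and 45.1 CPM (-1.59 ± 0.083, adjusted p = 6.42e-20). These genes, at similar levels with DGAT1i, had started from different ones. Bub1b was at 25.1, 20.4 and 27.1 CPM (-1.54 ± 0.093) and Cenpe at 36.1, 32.4 and 38.1 CPM (-1.43 ± 0.084). Among motors, Kif11 was at 34, 30.8 and 40.6 CPM (-1.55 ± 0.086) and Kif23 at 25, 23.1 and 27.8 CPM (-1.35 ± 0.098). Prc1 stood at 39.1, 32.1 and 36.6 CPM (-1.54 ± 0.08) and Tpx2 at 32.8, 27.5 and 38.4 CPM (-1.34 ± 0.099, adjusted p = 3.05e-11), so that Tpx2 fell here as well. Mki67 was at 182, 169 and 186 CPM (-1.33 ± 0.073) and Top2a at 157, 141 and 163 CPM (-1.4 ± 0.072). In all of these the library with the lowest value was the second one with DGAT1i.

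The 3 genes that fell by less than 2-fold were Incenp (-0.96 ± 0.066), Smc2 (-0.97 ± 0.07) and Smc4 (-0.83 ± 0.063). Incenp was at 71.6, 60.5 and 69.8 CPM, Smc2 at 64.8, 66.7 and 75.5 CPM and Smc4 at 85.8, 84.9 and 86.2 CPM. All 3 are also among the 5 genes that kept the most in IFNγ + LPS, a comparison that shares the M0 libraries with this one. Cenpa, another of the 5, fell like the rest, from 55.8, 55.5 and 50 CPM to 24.6, 18.7 and 22.6 CPM (-1.29 ± 0.098).

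The further lists fell in M0 as follows. With DGAT1i, 14 of 14 checkpoint and passenger genes fell (Nek2 -1.61, Kntc1 -1.14, Cdca8 -1.19), as did 25 of 28 kinetochore genes (Hjurp -1.09, Knl1 -1.37) and 24 of 25 spindle and centrosome genes (Aspm -1.79, Spag5 -1.63, Kif20b -1.34). Of the cohesin, separase and condensin genes 10 of 15 fell, and of the APC/C genes 6 of 17 (9 with RLE scaling and 10 with library size only), while 13.4% of all tested genes fell. All 23 S-phase genes fell, with a median of -0.88 (Rrm1 -1.03, Tk1 -1.39, Mcm7 -1.04). Of the CDK inhibitors and brakes 10 of 16 fell and 2 rose, and Cdkn1a was lower by DGAT1i at -0.32. The ratio of the summed mitotic genes to the summed S-phase genes was 1.53 to 1.627 in the M0 libraries, 0.9368 to 1.036 in M0 with DGAT1i, 0.5436 to 0.6234 in IFNγ + LPS and 0.542 to 0.5638 in IFNγ + LPS with DGAT1i. Thus the mitotic genes were lower relative to S-phase genes in each treated group than in M0, without overlap of the libraries.

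The third comparison asks what DGAT1i did in inflammatory cells, where little of these genes was left. Of the 46, 2 rose (Cenpa and Hmmr), 3 fell (Tpx2, Smc2 and Spc24) and 41 did not pass the test, while 16.3% of all tested genes fell and 13.5% rose. Hmmr, Spc24 and 27 others of the 46 were tested only through their level in resting cells, and of the 17 that passed the filter in the inflammatory libraries alone, 1 rose and 2 fell. The median log2 fold change was -0.1. Tpx2 fell from 92.9, 94.9 and 76.2 CPM to 56, 56.5 and 58.8 CPM (log2 fold change -0.62 ± 0.1, adjusted p = 2.64e-05). Smc2 fell from 19.2, 17.8 and 14.8 CPM to 9.47, 13.4 and 12.1 CPM (-0.56 ± 0.15, adjusted p = 0.0029). The groups did not overlap in either gene.

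Cenpa rose from 9.05, 6.84 and 8.05 CPM to 12.4, 10.6 and 15.2 CPM (log2 fold change 0.67 ± 0.18, adjusted p = 0.00264), without overlap. Hmmr, a receptor for hyaluronan that also binds spindle microtubules, rose from 0.421, 0.9 and 0.749 CPM to 2.26, 1.46 and 2.57 CPM (1.54 ± 0.48, adjusted p = 0.00946), on 11 and 29 reads per group. Spc24 had 6 reads in IFNγ + LPS and 0 with DGAT1i, which is at least 1.78-fold lower by the same limit, and its call (adjusted p = 0.0273) was lost in 4 of the 12 fits without a library, with an adjusted p of up to 0.0841 without IFNγ + LPS replicate 3, and with DESeq2 (0.0611). Cenpa, Hmmr, Tpx2 and Smc2 kept their calls in all 12, with adjusted p of up to 0.0409, 0.0493, 0.000643 and 0.044, but in a fit of the inflammatory libraries alone Hmmr did not pass the filter and had no call.

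For genes with enough reads the test bounds the response. The 95% interval of the log2 fold change was -0.17 to 0.21 for Incenp, -0.2 to 0.18 for Smc4 and -0.32 to 0.5 for Mki67, and each leaves out the fall of the same gene in M0. For Cdk1 it was -0.53 to 0.53, for Cenpe -0.56 to 0.5 and for Bub1b -0.41 to 0.89. For less abundant genes the intervals were wider. Among the 25 genes with at least 10 reads in each inflammatory group, the interval includes the fall in M0 for Aurka, Foxm1, Ndc80, Knstrn and Ect2 (-1.6 to 0.44 for Foxm1). The intervals do not count the error of the M0 value and are not adjusted for the number of genes. For Aurkb, Birc5, Prc1, Top2a, Smc2 and Ncaph the interval leaves the fall out, but the edgeR test of the difference did not pass (adjusted p of 0.0614 to 0.137). Of the 25, Foxm1, Aurkb, Birc5, Ndc80, Knstrn, Hmmr, Ect2 and Ncaph passed the filter only through the resting libraries. In IFNγ + LPS with DGAT1i 6 of the 46 had 0 reads (Cdc25c, Ube2c, Cenpf, Spc24, Kif18b and Pimreg) and 17 had under 10 reads in the group. Where both groups held 3 reads or fewer, no fold is given. In these libraries the dendritic cell markers summed to 3.13 to 4.12 CPM, below IFNγ + LPS alone. A list of 12 neutrophil and granule genes also moved, summing to 16.8 to 27.3 CPM in IFNγ + LPS and to 64.5 to 82.4 CPM with DGAT1i. Of the 5 of its genes that passed the filter 4 rose (Ngp, Ltf, S100a8 and S100a9), Retnlg and Ly6g were at 0 reads in the 12 libraries, and its part in the values of the mitotic genes was not tested.

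Within cells given DGAT1i, IFNγ + LPS lowered 45 of the 46 and raised Tpx2, and of all tested genes 35.3% fell and 35.3% rose there (with libraries scaled by size only 6799 and 2333 genes, in place of 4151 and 4152). Tpx2 rose from 32.8, 27.5 and 38.4 CPM to 56, 56.5 and 58.8 CPM (log2 fold change 0.79 ± 0.11, adjusted p = 5.13e-07). This call held under all scalings tried. The median log2 fold change of the 46 was -4.27, and -4.22 with the 6 genes at 0 reads set to their bounds. Cenpf was at least 92.9-fold lower, Ube2c at least 53.7-fold and Kif18b at least 38.8-fold. The smallest falls were those of Cenpa (-0.8 ± 0.14) and Incenp (-0.83 ± 0.084).

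The last comparison asks whether DGAT1i acted differently in the resting and the inflammatory state, by the difference between its log2 fold changes. It was higher in IFNγ + LPS than in M0 for 18 of the 46 and lower for none, while over all tested genes 8.66% were higher and 9.8% lower (with libraries scaled by size only 1229 and 882 genes, in place of 1019 and 1152). The median difference of the 46 was 1.21. In the same contrast 4 of the 5 tested neutrophil and granule markers were higher and none lower. Of the 8 macrophage markers 5 were lower and none higher, and the part of these markers in the values was not tested. Of the 18, 5 (Ccnb2, Plk1, Kif11, Kif4 and Hmmr) passed the filter only through the resting libraries, where they were high, and 13 were among the 17 that also passed it in the inflammatory libraries alone. The smallest p belonged to Cenpa (difference 1.96 ± 0.2, adjusted p = 8.53e-11), Incenp (0.98 ± 0.12, adjusted p = 3.53e-09) and Smc4 (0.83 ± 0.12, adjusted p = 2.37e-07). Cenpa fell with DGAT1i in M0 and rose in IFNγ + LPS, whereas Incenp and Smc4 fell in M0 and were at 0.02 and -0.01 in IFNγ + LPS. Tpx2 fell in both states and less in IFNγ + LPS (difference 0.72 ± 0.14, adjusted p = 0.000601). Other genes past the threshold were Hmmr (3.04 ± 0.48), Bub1b (1.78 ± 0.35), Racgap1 (1.64 ± 0.35), Mki67 (1.42 ± 0.22), Cenpe (1.39 ± 0.29) and Cdk1 (1.18 ± 0.28).

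The share of genes past the threshold was highest among those with the most reads, and the part of read number in the calls was not tested. Of the 16 genes with 30 or more reads in IFNγ + LPS 11 passed the threshold, of the 14 genes with 10 to 29 reads 3 did, and of the 16 with under 10 reads 4 did. The difference was above 0 in 16 of 16 and 14 of 14 of these and, with under 10 reads, in 10 of 16. These signs were not tested. The share of all tested genes above 0 was not computed, and their median difference was -0.01. Of the genes counted here, 29 passed the filter only through the resting libraries, where they were high, and 5 of these 29 passed the threshold. Leaving out libraries one at a time kept 12 of the 18 calls in all 12 fits. The others were Kif23, kept in 3 fits and at an adjusted p of 0.634 without IFNγ + LPS with DGAT1i replicate 3, Kif4 (7 fits, 0.155 without the same library), Plk1 (8 fits, 0.23 without replicate 2 of that group), Ccnb2 (0.0666) and Kif11 (0.329), both lost without that replicate 2, and Spc25 (0.0938), lost without IFNγ + LPS replicate 2. The direction stayed the same in each of these.

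**Figure D5:**
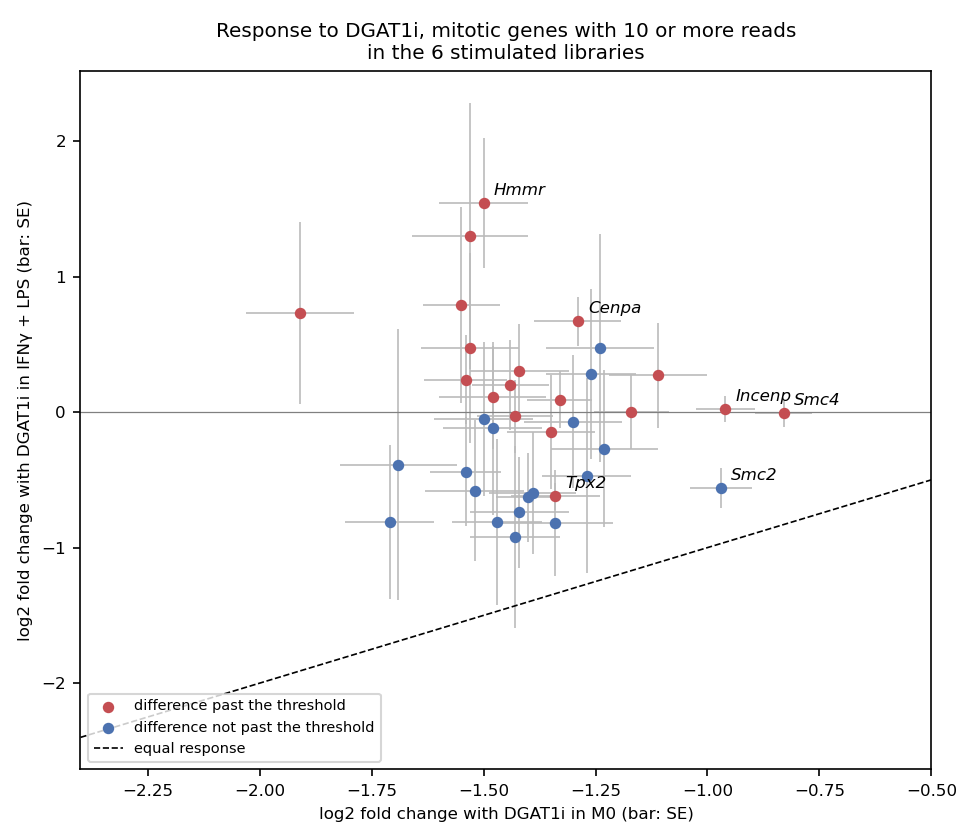
Log2 fold change with DGAT1i in M0 (horizontal axis) and in IFNγ + LPS (vertical axis) for the 36 of 46 genes with 10 or more reads in the 6 inflammatory libraries, with bars of 1 SE, and red points where the difference passed the threshold (18 genes). All 36 points lie above the dashed line of equal response, all 36 lie below 0 on the horizontal axis, and of those above 0 on the vertical axis Cenpa and Hmmr passed the test there. Of the 46, 17 passed the filter in the inflammatory libraries alone, and the others were tested through their level in resting cells. The median difference of all tested genes was -0.01, and the share of them above the line was not computed.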

How the data were processed

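RNA sequencing libraries of BMDM were analysed in 4 groups of 3, taken from the deposited sample labels. The authors deposited raw read counts per gene, without normalization, in 1 table of the 12 libraries. Their processing notes name GRCm38 and DESeq2, and which aligner, counting tool and annotation were used is not given in the sources used here. The labels name a NEBNext low-input kit and the methods a TruSeq stranded kit, and whether counting used strand is not stated, so that reads of overlapping genes on opposite strands may be mixed. Of the gene identifiers, 47310 matched GENCODE release M21 (version dropped), which gave symbols, positions and exon lengths, and 627 did not.

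The counts were tested with edgeR 4.0.16 in R 4.3.3 (filterByExpr, TMM, glmQLFit with robust estimation, glmQLFTest, 1 mean per group over all 12 libraries, Benjamini-Hochberg adjustment over 11760 genes, adjusted p under 0.05). The 46 genes and the further lists were chosen with earlier results of these data known. Named are, in each role, the 2 genes with the highest mean CPM, and in each comparison the 3 largest changes in each direction among changed genes with at least 10 reads (for the difference, the 3 smallest p). In each further list up to 3 genes with the smallest p are named. A gene that this rule would name is not reported here. For a group with 0 reads a fold is a bound, computed as if the group held 3 reads. Groups with 1 to 3 reads get a ratio with an exact 95% interval. Intervals and bounds cover counting error only. Promoters came from RefSeq (GRCm38.p6). Copies were sought with BLAST+ at 95% identity over 20% of the longest transcript. Alternatives were DESeq2 1.42.0, RLE or library-size scaling, no filter or a mean CPM of 1, fits of the compared libraries alone, a threshold of 0.1, a replicate block, and leaving out each library. The scripts were tested on simulated data.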

Additional observations from a re-analysis of the deposited data

Results flagged for a closer look

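The response to DGAT1i differed between the inflammatory and the resting state for 18 of the 46 genes, all of them higher in IFNγ + LPS (a difference between groups, tested by edgeR's interaction contrast), against 8.66% of all tested genes higher and 9.8% lower. Of the 18, 5 (Ccnb2, Plk1, Kif11, Kif4 and Hmmr) passed the filter only through the resting libraries, and 12 kept their call whichever library was left out. The difference on the log2 scale was 1.96 for Cenpa, 0.98 for Incenp, 0.83 for Smc4 and 0.72 for Tpx2. Tpx2 was added to this list after its values were seen. In the same contrast 4 of the 5 tested neutrophil and granule markers were higher and 5 of the 8 macrophage markers lower, and their part in these values was not tested.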

How the results depend on the processing

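The direction of the 46 genes' median and their counts of calls were recomputed under RLE scaling, library size only, no filter, a mean CPM of 1, DESeq2, the libraries compared alone, an adjusted p under 0.1, a replicate block, and without each library. In IFNγ + LPS against M0, 45 fell in each of them except library size only, where 46 did. With DGAT1i in M0, 46 fell in all of them. Library size only moved the median of the 46 to -6.14 in IFNγ + LPS against M0 and to -4.68 under DGAT1i, where the median of all tested genes was -0.46 and -0.43, and turned Tpx2 to -0.40 in the first. Counts of the further lists under RLE and library-size scaling were added after seeing the data. In fits of only the libraries compared, 17 of the 46 passed the filter for DGAT1i in IFNγ + LPS, which left 1 higher gene and a median of 0.02 over these 17 in place of -0.1 over 46. Hmmr and Spc24 were among the 29 not tested there. Without single libraries the median ranged from -5.73 to -5.49 in IFNγ + LPS against M0, from -4.38 to -4.12 under DGAT1i, from -0.16 to 0 for DGAT1i in IFNγ + LPS (2 to 4 genes lower, with Top2a added without IFNγ + LPS replicate 1) and from 1.11 to 1.35 for the difference, whose calls ranged from 15 to 19, and reached 24 at an adjusted p under 0.1 and 16 without a filter. Replicate numbers showed no strong pairing of the samples: same-numbered libraries correlated with r of -0.0249 to 0.0706 (18 pairs, median 0.0148) after removal of group means. Differently numbered ones correlated with r of -0.0643 to 0.0382 (36 pairs, median -0.0041), and the check cannot exclude a weak pairing. With a replicate block IFNγ + LPS lowered 45 genes (median -5.66), DGAT1i lowered 46 in M0, and 18 differences passed, so that no count of calls moved. In IFNγ + LPS depth limits what can be said: 16 of the 46 had under 10 reads in the group. Without single libraries the log2 fold change against M0 ran from -11.93 to -9.35 for Cenpf and from -10.78 to -8.2 for Ube2c. It ran from -10.68 to -8.12 for Kif2c and from -10.42 to -7.85 for Pimreg. For Plk1 it was -7.97 to -6.64 and for Ncapg -7.36 to -6.27.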

Other observations

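In the resting groups many of the 46 genes had their highest or lowest value in the same library. Among the M0 libraries replicate 2 was highest for 34 of the 46 and replicate 3 lowest for 40 (35% and 35.7% of all tested genes), with summed levels of 3818 and 3234 CPM. With DGAT1i in M0, replicate 3 was highest for 37 and replicate 2 lowest for 37 (33.6% and 32.5% of all tested genes), with sums of 1482 and 1244 CPM. In IFNγ + LPS, without and with DGAT1i, the libraries shared the highest values more evenly.

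Pairs of CCAAT boxes whose starts lie 31 to 33 bases apart, a spacing chosen after the promoters were seen, occurred in 7 of the 36 promoters (19.4%), against 1.04% of all promoters and 2.05% of those of tested genes. This describes letters only.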
